A study of Homo sapiens with 8 samples.

Results

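Human corneal epithelial cells that received the air-liquid (AL) stimulus together with diclofenac (DCF) were compared with untreated static cells. The comparison used 4 of the 8 RNA-seq libraries of the study, 2 from the combined treatment (AL_DCF) and 2 from the static control (ST). These libraries were taken by their labels, and the comparison was chosen with earlier results of these data known. The remaining libraries came from the AL stimulus alone (AL, n = 2) and from static cells with DCF (ST_DCF, n = 2). All cells were HCE-T, an established human corneal epithelial cell line, grown for 7 days as a barrier in the upper channel of a microfluidic device, in DMEM/F12 medium that contained serum, insulin, epidermal growth factor and dimethyl sulfoxide in every group. In AL and AL_DCF, air and liquid were then passed over the cells in repeated cycles, which imitates an evaporating tear film. In ST and ST_DCF the liquid stayed in place. DCF, a nonsteroidal anti-inflammatory drug used as an eye drop, was given at 50 µM in the upper channel to ST_DCF and AL_DCF. Since AL_DCF differed from ST in both the stimulus and the drug, their shares in a difference cannot be told apart from this comparison alone. The values in AL and ST_DCF are set beside it for some genes and lists. A single cell line in culture, without stroma, nerves or tears, limits the model. The methods describe the duplicates as independent biological samples.

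The corneal epithelium is a stratified sheet that keeps the eye surface wet and closed. Cadherins and desmosomes hold its cells together, tight junctions built of claudins and occludin seal the outermost layer, and membrane mucins such as MUC16 hold the tear film. Transcription factors of the GRHL, OVOL and ETS families maintain this state, whereas ZEB factors repress many of its genes when epithelial cells take on mesenchymal features.

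The libraries held 32880479 to 46369412 counts, with the 2 ST libraries below both AL_DCF libraries, and the share of counts from mitochondrial genes was 1.55% to 1.60% in ST and 1.75% to 1.89% in AL_DCF. After thinning all libraries to the same total 1404 genes were higher and 1702 lower, near the main counts below, and the part of the mitochondrial share was not tested. Expression is reported in CPM, a count divided by the size of its library after TMM scaling. Of 8 markers of corneal epithelium, 6 could be tested, and their summed level was 427 and 440.3 CPM in ST and 117 and 119.7 CPM in AL_DCF, most of it from CDH1 and KRT5. The corneal keratin genes KRT12 and KRT3, which define the differentiated cornea, were not among the genes tested. The eye field factor PAX6 was at 10.1 and 9.02 CPM in ST and 12.2 and 12.9 CPM in AL_DCF. The extraction note of the labels names myoblasts, but the myogenic genes MYOD1, MYF5 and MYOG were not among the genes tested, and the summed level of the 3 tested myoblast markers stayed at or under 3.47 CPM in ST and AL_DCF. The 4 tested fibroblast and keratocyte markers summed to 77.0 and 77.1 CPM in ST and 107 and 111 CPM in AL_DCF. Nearly all of this came from FBLN1, a matrix protein gene, while LUM, KERA, DCN and DPT, which define keratocytes and fibroblasts, were not among the genes tested. The 5 endothelial markers summed to 8.05 to 8.93 CPM in ST and 4.29 to 5.53 CPM in AL_DCF.

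At an adjusted p under 0.05 in edgeR's quasi-likelihood test, 1481 of 17445 genes (8.49%) were higher in AL_DCF than in ST and 1714 (9.83%) were lower. In bulk RNA, fewer cells of a type and less RNA per cell cannot be told apart, and this holds for every level below. The counts rest on both ST libraries, since, with 1 library left out at a time here and below, 514 genes were higher and 931 lower without ST replicate 1, and 467 and 855 without ST replicate 2. In each case more of the called genes were lower than higher, and among the called genes that also changed at least 2-fold there were 208 higher and 628 lower. The median log2 fold change over all genes tested was −3e-04. Both AL_DCF libraries lay above both ST libraries in 30% of all genes tested and below both in 30.2%. Such separation of the groups was therefore common. Among the genes above an average of 2 CPM, the highest fold changes included ANGPTL4, an inhibitor of lipoprotein lipase, the immediate early genes FOS and EGR1, the cytokine gene IL6, and the genes of the secreted antagonists FRZB and GREM1. The lowest included NPNT, a basement membrane ligand of integrins, the mucin gene MUC16, the interferon-inducible GBP6, the acute-phase genes SAA1 and SAA2, and STRA6, the receptor for retinol-binding protein. The plot of all genes shows them at their expression levels.

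**Figure D1:**
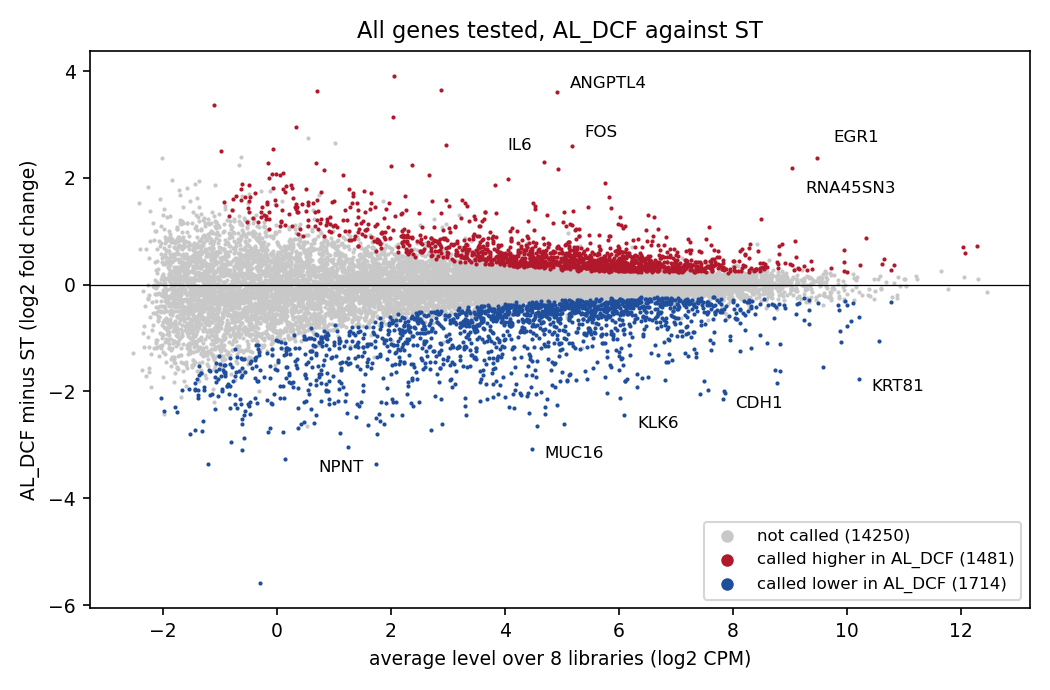
Each point is 1 of the 17445 genes tested, with its average level over the 8 libraries in log2 CPM on the horizontal axis and its log2 fold change of AL_DCF against ST on the vertical axis. Red points mark the 1481 genes called higher and blue points the 1714 called lower. MUC16, NPNT, KLK6 and CDH1 stand out among the lower genes, and ANGPTL4, FOS, EGR1 and IL6 among the higher.

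Genes were also read in lists by role. Each list is described by the number of its members that passed the test over all genes, beside the 8.49% and 9.83% above. The lists were written with earlier results of these data known, so these shares describe the lists and are no independent test. Among lists with at least 10 tested members, those with the largest shares lower were the lists of kallikreins, adherens junctions and desmosomes, keratins, mucins and epithelial transcription factors. In the same lists, collagens, NRF2 and glutathione genes, and mesenchymal genes had the largest shares higher. In the order given, the lists lower had median log2 fold changes against ST of −1.40, −0.82, −0.98, −1.25 and −0.81 in AL. In ST_DCF these medians were 0.09, 0.04, 0.06, −0.09 and −0.09. The lists higher had medians of 0.79, 0.27 and 0.34 in AL and 0.11, 0.06 and −0.02 in ST_DCF.

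**Figure D2:**
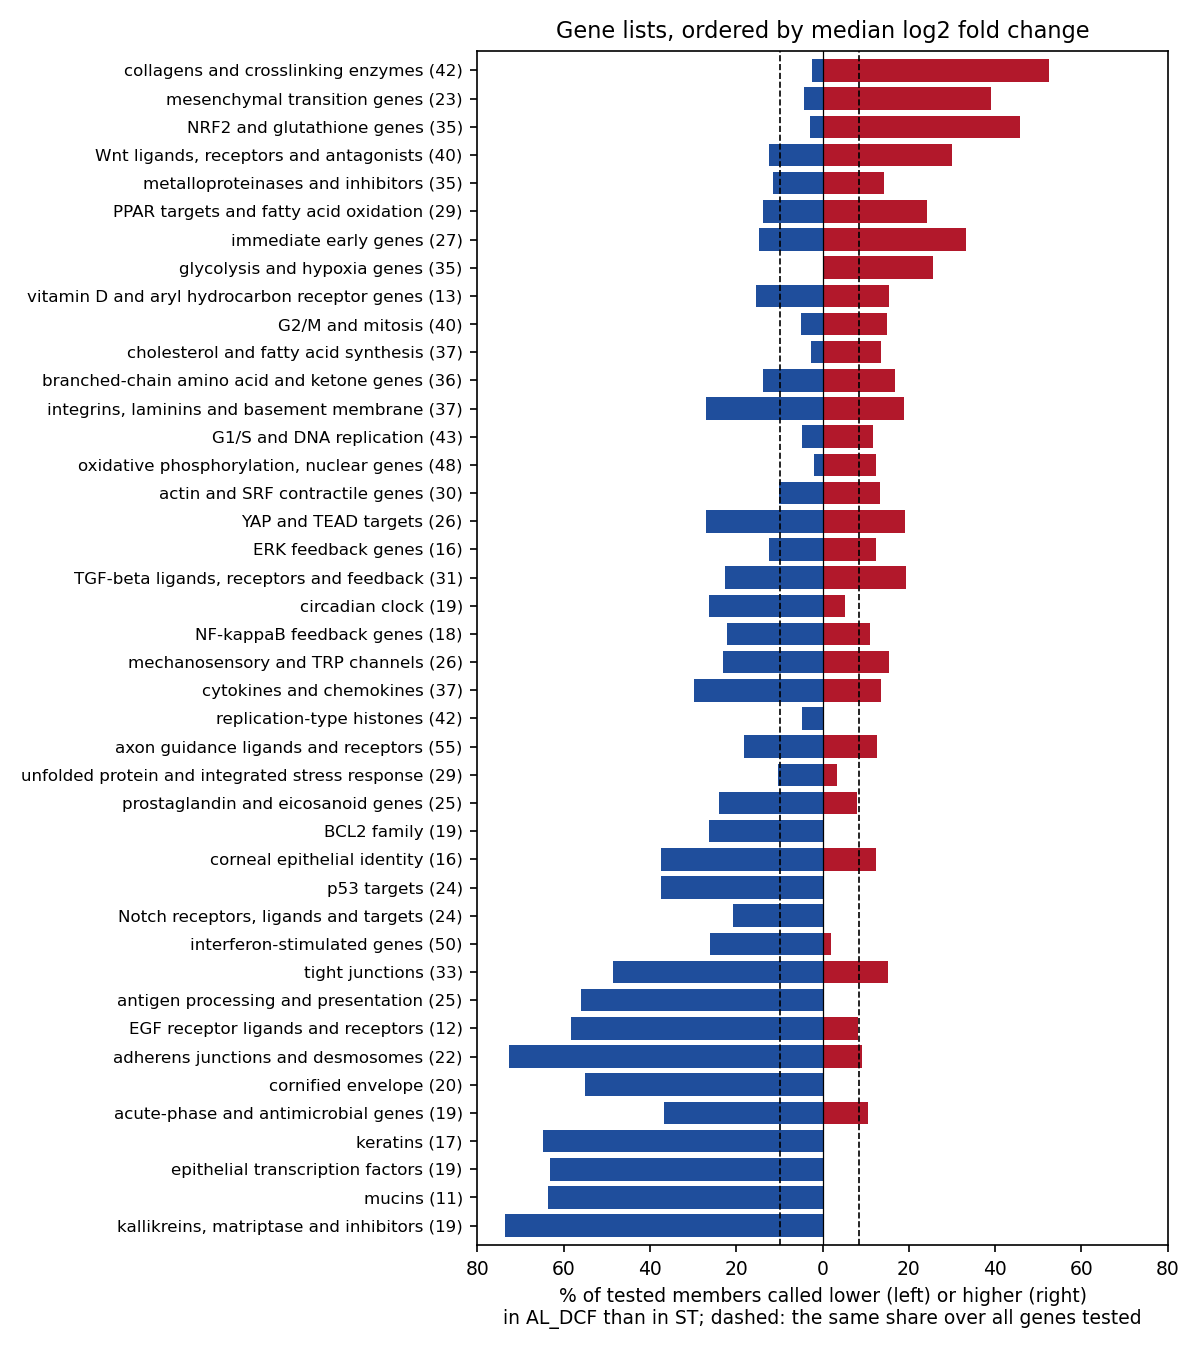
Bars give the share of tested members of each list called lower (blue, left) or higher (red, right) in AL_DCF than in ST, in percent, with the number tested in brackets and the lists ordered by median log2 fold change. Dashed lines mark the shares over all genes tested, 9.83% lower and 8.49% higher.

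Immediate early genes, which are switched on within minutes of growth factor or mechanical signals and fade soon after, were called higher in AL_DCF more often than lower. Of 27 tested members, 9 were higher and 4 lower (median log2 fold change 0.15, against −3e-04 over all genes). The AL_DCF libraries differed. In replicate 1, 16 members lay above and 10 below both ST libraries, with a median log2 ratio to the ST mean of 0.29. In replicate 2, 12 lay above and 13 below, with a median of 0.02. EGR1, a zinc finger transcription factor gene at chromosome 5, 138465479 to 138469303 of GRCh38, was at 268 and 232 CPM in ST and 1329 and 1248 CPM in AL_DCF. Both AL_DCF libraries lay far above both ST libraries, a log2 fold change of 2.37 ± 0.099 (SE; adjusted p = 1.3e-07). Serum response factor, which drives EGR1 and FOS after such signals, binds a motif called the CArG box. The EGR1 promoter is shown because it was the sole member of the list with this motif in its window, which runs from 250 bases before to 50 after the start of the gene (RefSeq, GRCh38.p14, chr5:138465229-138465528, plus strand, with the 2 CArG boxes in capitals).
EGR1: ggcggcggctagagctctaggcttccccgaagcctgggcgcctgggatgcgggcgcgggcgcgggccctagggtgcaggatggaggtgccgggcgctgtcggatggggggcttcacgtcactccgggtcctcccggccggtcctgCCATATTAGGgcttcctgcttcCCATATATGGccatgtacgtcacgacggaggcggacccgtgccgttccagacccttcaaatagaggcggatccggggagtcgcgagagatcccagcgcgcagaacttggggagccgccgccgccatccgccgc
On either strand the CArG box stood in 1 of 21 windows found for the list and in 1.29% of all 27305 windows, and no box overlapped another motif searched here. Sites outside these windows were not searched. FOS, a subunit of the AP-1 factor, was at 10.8 and 9.60 CPM in ST and 72.8 and 51.8 CPM in AL_DCF (log2 fold change 2.61 ± 0.18, adjusted p = 2.5e-06). Its partner JUN was at 118 and 124 CPM in ST and 207 and 170.4 CPM in AL_DCF, a smaller rise of 0.65 ± 0.095 (adjusted p = 0.00078). DUSP1, a phosphatase that switches off stress kinases, was less even, at 26.8 and 31.1 CPM in ST and 125 and 56.6 CPM in AL_DCF (log2 fold change 1.65 ± 0.27, adjusted p = 0.0015). IER2 and KLF2, the latter a factor known for its response to flow in endothelium, rose by 1.07 (adjusted p = 1.5e-05) and 1.17 (adjusted p = 0.0011) on the log2 scale. The family did not move as one, since EGR3 fell (log2 fold change −1.47 ± 0.21, adjusted p = 0.00072) and FOSB (0.02), MYC (0.09) and ATF3 (−0.19) did not pass the test. Set beside these values, EGR1 was at 1054 and 1089 CPM in AL and 209 and 239 CPM in ST_DCF, and FOS at 56.6 and 65.0 and 8.44 and 11.2 CPM. AL_DCF and AL did not differ at the threshold in either gene (adjusted p = 0.27 and 0.95).

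Of 19 tested transcription factors and splicing regulators that maintain epithelial identity, 12 fell and none rose (median log2 fold change −1.20), and without any one ST or AL_DCF library 10 to 11 were lower. ESRP1, a splicing regulator of epithelial isoforms, was at 82.8 and 82.7 CPM in ST and 24.8 and 25.4 CPM in AL_DCF (log2 fold change −1.72 ± 0.097, adjusted p = 6.9e-07), and its relative ESRP2 had a log2 fold change of −1.61. OVOL1, a repressor of mesenchymal genes, was at 57.2 and 58.2 CPM in ST and 18.5 and 14.9 CPM in AL_DCF (log2 fold change −1.79 ± 0.13, adjusted p = 4.3e-06). The grainyhead genes GRHL2, GRHL1 and GRHL3, which maintain junction and barrier genes, had log2 fold changes of −1.60, −1.20 and −0.96. In each of these genes every AL_DCF library lay under every ST library. TP63, the master factor of stratified epithelia, was listed at under 1 CPM in both groups, and KLF5 (−0.14) and TP63 (−0.24) did not pass the test.

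Among keratins, the intermediate filament proteins of epithelial cells, 11 of 17 were lower and none higher (median −1.06). KRT8 and KRT18, the pair of simple epithelia, were at 2025 and 1932 CPM and 1269 and 1202 CPM in ST. In AL_DCF they were at 932 and 972 CPM and 575 and 595 CPM, with log2 fold changes of −1.06 ± 0.078 and −1.08 ± 0.085. KRT19 fell further, from 668 and 685 CPM to 190.1 and 189 CPM (−1.84 ± 0.088, adjusted p = 1.9e-07). The hair keratin gene KRT81 had 1821 and 1819.9 CPM in ST and 562 and 514 CPM in AL_DCF, though reads of KRT81 and its near copy KRT86 may have been split by the counting. KRT14 (0.17) and KRT10 (0.04) were not called. Of 20 tested genes of the cornified envelope, the tough shell of terminally differentiated keratinocytes, 11 were lower and none higher (median −0.80; 1 higher without either ST_DCF library). PPL, which links keratin filaments to the envelope, was at 114 and 128 CPM in ST and 46.8 and 53.3 CPM in AL_DCF (log2 fold change −1.28 ± 0.11, adjusted p = 1.3e-05). The crosslinking enzyme TGM1 (−1.37 on the log2 scale) and the lipid transporter ABCA12 (−1.56) fell, whereas IVL lay at 1.18 and 1.25 CPM in ST and 0.224 and 0.241 CPM in AL_DCF, a low level in both groups.

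The largest share of a list to fall was in the kallikreins, matriptase and their inhibitors, the proteases that shed surface cells and the proteins that hold them in check, with 14 of 19 lower and none higher (73.7%, median −1.49). KLK6 was at 110.4 and 112 CPM in ST and 19.4 and 21.3 CPM in AL_DCF, a log2 fold change of −2.45 ± 0.081 (adjusted p = 4.6e-08). KLK5 and KLK7, which cut desmosomes in skin, fell from 173 and 166 to 48.2 and 49.9 CPM and from 49.3 and 43.3 to 7.68 and 9.59 CPM. The membrane proteases PRSS8 and ST14 (matriptase) fell, with log2 fold changes of −1.91 and −1.68, and so did their inhibitors SPINT1 (−1.34) and SPINT2 (−0.94). Enzymes and inhibitors fell side by side. Of 11 mucin genes and mucin glycosylation enzymes, 7 were lower and none higher (median −1.40), with 5 to 8 lower without any one ST or AL_DCF library. MUC16, the large membrane mucin of the ocular surface, was at 41.2 and 43.0 CPM in ST and 4.66 and 5.25 CPM in AL_DCF (log2 fold change −3.09 ± 0.13, adjusted p = 1.3e-07). MUC20 fell from 8.42 and 8.84 to 2.06 and 1.71 CPM and MUC4 from 0.747 and 1.25 to 0.381 and 0.372 CPM. MUC1 was at 12.7 and 18.6 CPM in ST and 11.7 and 10.7 CPM in AL_DCF and did not pass the test (−0.48, adjusted p = 0.06). By contrast, DESeq2 called MUC1 lower and did not call MUC4.

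Genes of cell-cell contacts were lower in most members for adherens junctions and desmosomes. In adherens junctions and desmosomes 16 of 22 genes were lower and 2 higher (median −0.76). CDH1, which encodes E-cadherin, was at 354 and 365 CPM in ST and 79.2 and 83.3 CPM in AL_DCF (log2 fold change −2.15 ± 0.094, adjusted p = 1.3e-07), and its neighbour on chromosome 16, CDH3 (P-cadherin), went from 349 and 362 CPM to 90.5 and 87.8 CPM. EPCAM was at 129 and 137 CPM in ST and 38.1 and 42.0 CPM in AL_DCF. The desmosomal genes DSG2, DSC2 and DSP fell, with log2 fold changes of −0.92, −1.19 and −0.89. NECTIN3 (0.77, adjusted p = 0.0025) and DSC3 (0.60, adjusted p = 0.013) were the 2 that rose, and 1 of them was called without ST replicate 1, ST replicate 2 or AL_DCF replicate 2. Of the catenins, CTNNB1 (−0.39) fell while CTNNA1 (−0.01) was not called.

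Among 33 tight junction genes 16 were lower and 5 higher (median −0.36). CLDN7 fell from 278 and 292 CPM to 75.2 and 70.4 CPM (log2 fold change −1.97 ± 0.078, adjusted p = 1.3e-07) and CLDN4 from 152 and 171 to 60.8 and 56.9 CPM. OCLN, which encodes occludin, was at 45.2 and 44.1 CPM in ST and 21.4 and 22.7 CPM in AL_DCF (−1.02 ± 0.12, adjusted p = 0.00013). The scaffold genes TJP1 (ZO-1) and TJP3 fell, with log2 fold changes of −0.51 and −1.42. CLDN1 (−0.14) was not called. The 5 that rose were JAM3, PARD3, MPDZ, CXADR and MAGI3, adhesion and polarity genes with log2 fold changes from 0.40 to 0.95, and 3 and 1 were called without ST replicate 1 and ST replicate 2. The OCLN promoter is shown because ZEB1 and ZEB2, which rose here, are known to bind E-boxes with the letters CACCTG (RefSeq, GRCh38.p14, chr5:69492297-69492596, plus strand, with the 1 E-box, read on the opposite strand, in capitals).
OCLN: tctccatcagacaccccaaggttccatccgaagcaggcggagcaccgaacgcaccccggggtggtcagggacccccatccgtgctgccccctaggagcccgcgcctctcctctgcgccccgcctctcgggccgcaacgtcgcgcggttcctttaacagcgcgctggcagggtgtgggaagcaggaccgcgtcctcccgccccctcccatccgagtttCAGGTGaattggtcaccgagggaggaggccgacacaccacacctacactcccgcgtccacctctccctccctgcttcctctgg
Searched on both strands, these letters stood in 8 of 29 windows found for tight junction genes (27.6%), in 6 of 17 for adherens junctions and desmosomes (35.3%) and in 20.6% of all windows, and the box of OCLN overlapped no other motif searched. The windows of CRB3, PATJ, AFDN, DSG2 and DSP, all lower in AL_DCF, also held it, as did those of CLDN3 (−0.47) and CLDN6 (0.92), which were not called. No window was found for CDH1. Whether ZEB1 or ZEB2 bound any of these windows was not tested.

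**Figure D3:**
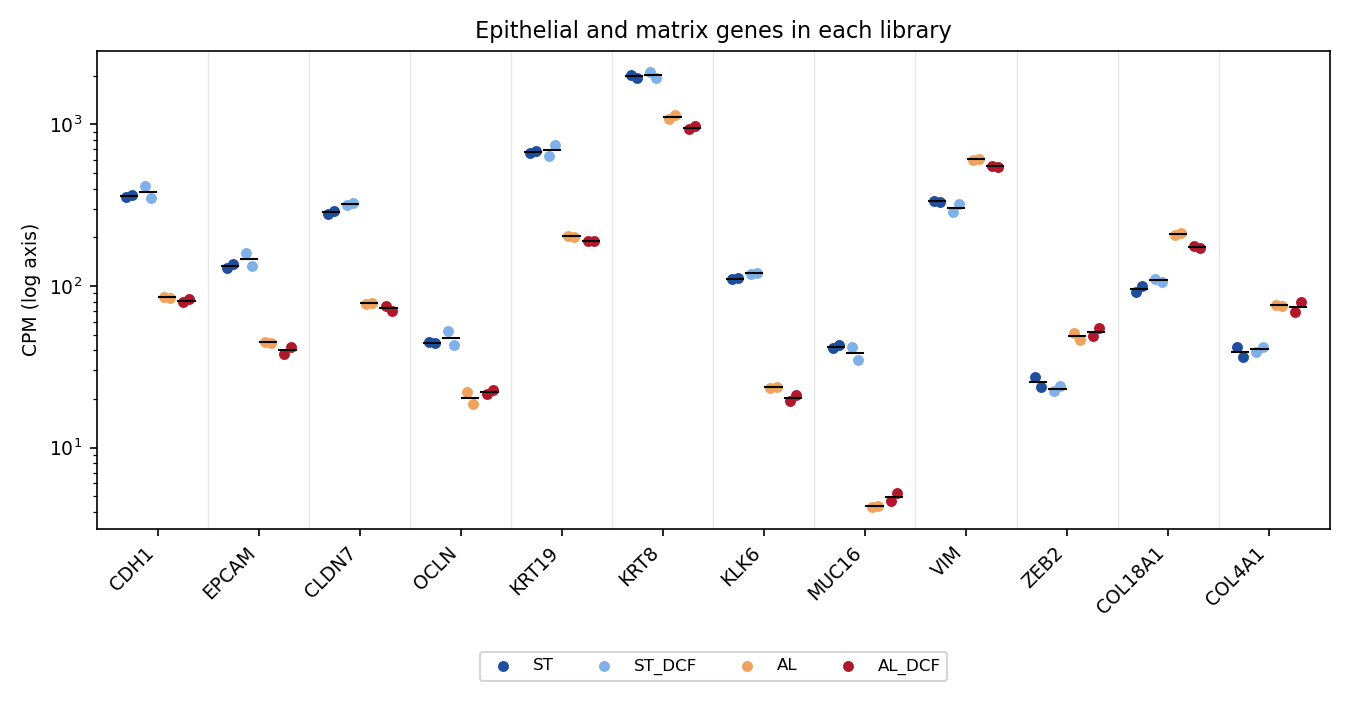
Points are single libraries, with CPM on a log axis, and black bars are the means of the 2 libraries of each condition. In CDH1, EPCAM, CLDN7, OCLN, KRT19, KRT8, KLK6 and MUC16 both AL_DCF libraries lay under both ST libraries, and in VIM, ZEB2, COL18A1 and COL4A1 they lay above.

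Genes of the mesenchymal state encode repressors, filaments and adhesion proteins of migrating cells. Of 23 tested mesenchymal transition genes 9 were higher and 1 lower (median 0.35). The higher count became 5 without ST replicate 2, and the lower count was 3 without ST_DCF replicate 1 or ST_DCF replicate 2. The repressor genes ZEB2 and ZEB1 were at 27.3 and 23.8 CPM and 22.5 and 18.6 CPM in ST. Their levels in AL_DCF were 49.3 and 55.1 CPM and 31.2 and 37.9 CPM, with log2 fold changes of 1.03 ± 0.10 and 0.75 ± 0.12 (adjusted p = 4.9e-05 and 0.0015). VIM, the intermediate filament vimentin, went from 337 and 332 to 552 and 548 CPM and CDH2, N-cadherin, from 146 and 137 to 201 and 232 CPM. All of these separated the groups, but SNAI1 (−0.27), SNAI2 (0.13), TWIST1 (0.19) and FN1 (−0.23), further genes of the same transition, did not pass the test.

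Of 42 collagens and collagen-modifying enzymes 22 were higher and 1 lower (52.4% and 2.38%, median 0.62), with 15 to 19 higher without any one ST or AL_DCF library and 2 lower without ST replicate 1. Among the collagens of basement membranes, COL4A1 was at 41.9 and 36.5 CPM in ST and 68.8 and 79.1 CPM in AL_DCF (log2 fold change 0.92 ± 0.097), COL4A2 rose by 0.85 and COL18A1 by 0.86. COL11A1, of a fibril-forming collagen, rose by 1.47 on the log2 scale (adjusted p = 5.1e-05), and COL5A3, of another, went from 32.7 and 33.6 CPM to 66.2 and 79.0 CPM. COL8A1 and COL3A1 had high fold changes at low levels. COL3A1 in particular was at 0.172 and 0.366 CPM in ST and 3.07 and 1.66 CPM in AL_DCF but at 3.29 and 21.7 CPM in AL (AL_DCF against ST 3.13 ± 0.97, adjusted p = 0.044). Without the filter on low counts COL3A1 was not called. COL1A1 (0.03) and COL1A2 (0.82) did not pass the test. The crosslinking enzymes PLOD2, LOX, LOXL1 and LOXL2 rose by 0.66, 0.62, 0.72 and 0.65. The sole member that fell was COL17A1 (−1.38), the collagen of hemidesmosomes, from 8.73 and 8.90 to 3.09 and 3.70 CPM.

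Hemidesmosome partners of COL17A1 fell as well. In the list of integrins, laminins and basement membrane genes 7 of 37 were higher and 10 lower (4 higher without ST replicate 1). LAMA3 and LAMB3, chains of the epithelial laminin, were at 241 and 251 CPM and 446 and 458 CPM in ST. In AL_DCF they were at 119 and 119.9 CPM and 218 and 181 CPM, log2 fold changes of −1.04 ± 0.17 and −1.18 ± 0.13. ITGB4, their receptor chain (−1.04), fell, and ITGB6, the epithelial integrin that activates TGF-beta, fell from 33.1 and 37.0 to 6.90 and 6.28 CPM. NPNT was at 7.12 and 6.92 CPM in ST and 0.538 and 0.832 CPM in AL_DCF (−3.35 ± 0.27, adjusted p = 9.2e-06). Higher were the collagen receptor ITGA11 (1.59), ITGB3 (1.09), NID1 (0.81) and LAMA1, which went from 28.5 and 28.9 to 53.9 and 54.6 CPM. Metalloproteinases were divided, with 5 of 35 members higher and 4 lower, and these counts turned on single libraries. The higher count was 3 without ST replicate 1 or AL_DCF replicate 1, 1 without ST replicate 2, and 8 and 9 without ST_DCF replicate 1 and ST_DCF replicate 2, and the lower count was 2 without ST replicate 2. MMP1, an interstitial collagenase, was at 25.4 and 24.5 CPM in ST and 90.6 and 45.5 CPM in AL_DCF (1.45 ± 0.35, adjusted p = 0.014), with a wide gap between the 2 AL_DCF libraries. MMP2 (0.59, adjusted p = 0.093) and MMP9 (−0.52) were not called, though DESeq2 called MMP2 higher.

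Cytokine genes moved in both directions. IL6 rose from 9.82 and 8.87 CPM in ST to 56.4 and 35.1 CPM in AL_DCF (log2 fold change 2.29 ± 0.21, adjusted p = 3e-05), and the neutrophil chemokine CXCL8 rose from 21.2 and 22.2 to 71.3 and 40.2 CPM. CXCL2, of the same family, reached 12.7 and 6.94 CPM in AL_DCF (2.23 ± 0.28, adjusted p = 0.00022). In all 3 genes AL_DCF replicate 1 was the higher of the pair by a wide margin. CCL5 and CXCL3 also rose, which made 5 of 37 tested cytokine and chemokine genes higher and 11 lower (3 higher without ST replicate 1 or ST replicate 2, and 8 without ST_DCF replicate 1 or ST_DCF replicate 2). Among the lower were LIF, at 175 and 171 CPM in ST and 73.5 and 67.8 CPM in AL_DCF (−1.29 ± 0.091, adjusted p = 3.6e-06), TNFSF15 (−2.25), CXCL16 (−1.22), IL18 (−0.81) and the receptor antagonist gene IL1RN (−1.61). IL1A (−0.37), IL1B (0.63), TNF (−0.42) and CCL2 (0.10) did not pass the test. Secreted acute-phase and antimicrobial genes were lower in 7 of 19 members and higher in 2 (median −0.85; the 2 higher, C1R and C1S, became 1 without ST replicate 1 or AL_DCF replicate 2 and 0 without ST replicate 2). WFDC2 and SLPI, protease inhibitors of mucosal fluids, fell, with log2 fold changes of −1.77 and −1.86, as did the antimicrobial RNASE7 (−1.36). SAA1 and SAA2, near-identical genes whose reads may have been split, had −2.55 and −2.79. LCN2, a siderophore-binding protein, had a log2 fold change of −2.11 in AL_DCF and −3.40 in AL.

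Interferon-stimulated genes, the antiviral programme downstream of interferon receptors, fell in 13 of 50 members and rose in 1 (median −0.33), but the 2 AL_DCF libraries differed. In AL_DCF replicate 1, 48 of the 50 genes lay under both ST libraries, and the median log2 ratio to the ST mean was −0.80. In AL_DCF replicate 2, 24 lay under and 15 above both ST libraries, with a median of −0.08. The 2 AL libraries had 48 and 49 under. The count of lower genes was 36 without AL_DCF replicate 2, 8 without AL_DCF replicate 1, 6 without ST replicate 1 and 5 without ST replicate 2, so it turned on single libraries, and the 1 that rose was lost without either ST library or AL_DCF replicate 2. In 24 of the 50 members both AL_DCF libraries lay under both ST libraries, against 30.2% of all genes tested. IRF7, a master factor of this programme, was at 27.3 and 37.2 CPM in ST and 7.62 and 7.75 CPM in AL_DCF (−2.07 ± 0.15, adjusted p = 3.7e-06), IRF1 went from 131 and 135 to 75.6 and 82.9 CPM, and GBP6 was at 3.30 and 4.27 CPM in ST and 0.560 and 0.350 CPM in AL_DCF. IFI6, the most abundant called member, was at 1227 and 1185 CPM in ST and 560.1 and 855 CPM in AL_DCF (−0.77 ± 0.17, adjusted p = 0.0077). CMPK2 (33.1 and 47.3 against 10.8 and 26.9 CPM) and SAMD9 (187 and 215 against 83.0 and 149 CPM) showed the gap between the AL_DCF libraries. IFIT1 (−0.65), ISG15 (−0.44) and MX1 (−0.24) did not pass the test. IFITM2 was the member that rose, from 2.53 and 2.35 to 4.01 and 5.65 CPM. The IFI6 promoter is shown as an example of the sequence that the signalling complex of these genes binds, the interferon-stimulated response element, searched here as GAAA, then 2 bases of any kind, then GAAA, with its 3 matches in capitals (RefSeq, GRCh38.p14, chr1:27672143-27672442, minus strand of the genome).
IFI6: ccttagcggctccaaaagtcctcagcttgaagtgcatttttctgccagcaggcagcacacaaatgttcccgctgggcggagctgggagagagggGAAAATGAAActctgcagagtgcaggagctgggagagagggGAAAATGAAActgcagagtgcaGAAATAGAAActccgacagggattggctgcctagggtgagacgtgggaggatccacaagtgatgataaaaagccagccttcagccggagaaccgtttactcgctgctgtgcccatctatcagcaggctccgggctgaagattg
Searched on both strands, this motif stood in 24 of 39 windows found for the list (61.5%) and in 3.65% of all windows, and no match in IFI6 overlapped another motif searched. Since the list was chosen for its response to interferon, that share describes the list.

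**Figure D4:**
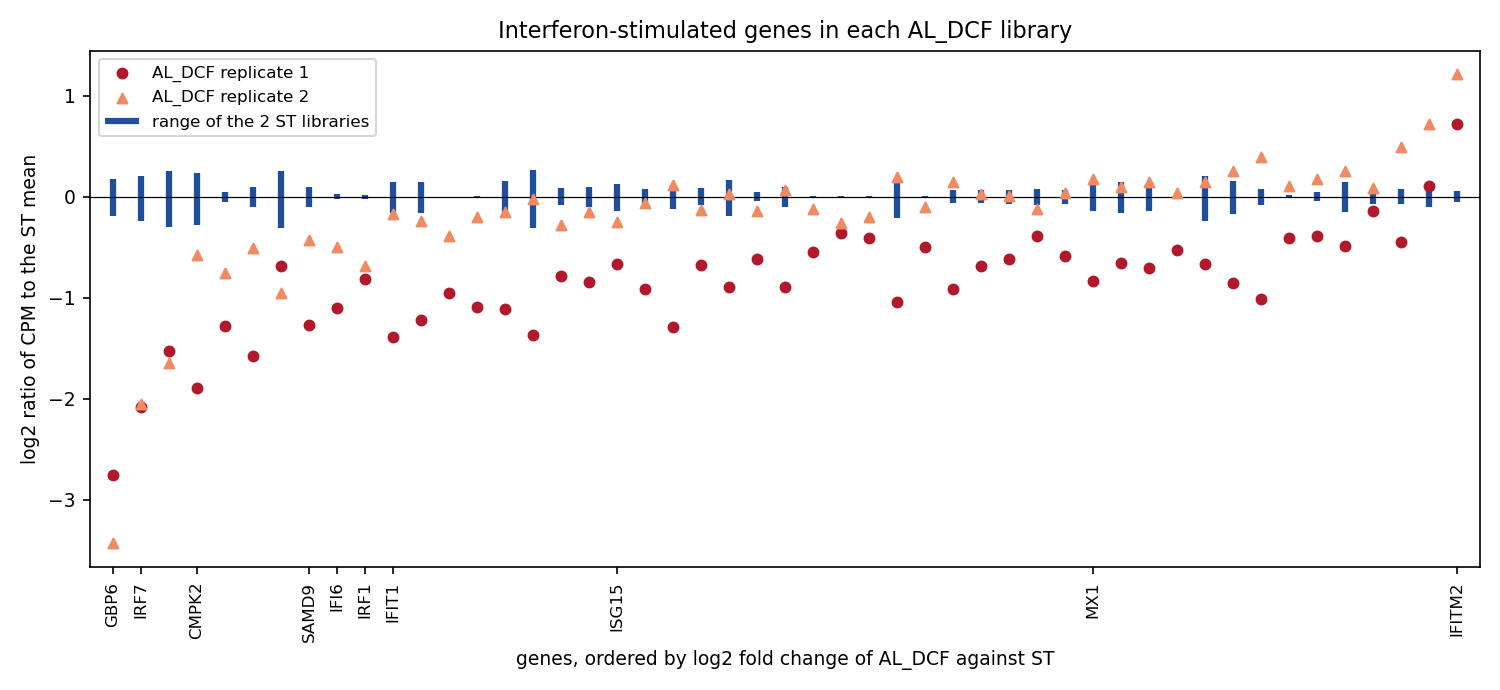
For 49 of the 50 interferon-stimulated genes, ordered by fold change and with 10 of them labelled, points give the log2 ratio of its CPM to the ST mean in AL_DCF replicate 1 (circles) and AL_DCF replicate 2 (triangles), and blue bars span the 2 ST libraries. Over all 50 genes replicate 1 had a median of −0.80 and replicate 2 of −0.08.

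Antigen presentation genes, many of which also respond to interferon, were lower in 14 of 25 members and higher in none (median −0.37; 1 higher without either ST_DCF library and 2 without AL_DCF replicate 2). The lower count was 6 without ST replicate 1, 5 without ST replicate 2 and 7 without AL_DCF replicate 1. Here the AL_DCF libraries were closer, with medians against ST of −0.37 and −0.29. The class I genes HLA-B and HLA-C, which present peptides to T cells, went from 1319 and 1267 to 758 and 862 CPM and from 1366 and 1361 to 881 and 910.3 CPM, and HLA-F fell too (log2 fold change −0.86, adjusted p = 4.8e-05). Reads of these polymorphic and similar genes may have been assigned unevenly. B2M, their shared light chain, was not called (−0.08).

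The EGF receptors and their ligands drive growth and wound closure of epithelia. Of 12 tested ligands and receptors of the EGF family 7 were lower and 1 higher (median −0.44). ERBB3 was at 99.0 and 105 CPM in ST and 40.5 and 40.9 CPM in AL_DCF (−1.32 ± 0.084, adjusted p = 1.5e-06). The ligand genes TGFA, AREG and HBEGF fell, with log2 fold changes of −1.02, −0.81 and −0.60. EGFR itself was at 403 and 382 CPM in ST and 384 and 394 CPM in AL_DCF (−0.01, not called). NRG2 was the sole member that rose, and was not called without ST replicate 1, ST replicate 2 or AL_DCF replicate 1, while 2 members were higher without either ST_DCF library. CCND1, the cyclin gene induced through this pathway, fell from 259 and 268 to 122 and 127 CPM. Among 16 tested ERK feedback genes, 2 were higher and 2 lower. The feedback phosphatase gene DUSP5 (−0.62) fell, and SPRY2 (1.00) and SPRED1 (0.28) rose. DUSP4 (−0.03) and DUSP6 (−0.03), also feedback phosphatases, did not pass the test. Of 24 p53 targets 9 were lower and none higher (median −0.27; 4 lower without ST replicate 2), among them PLK3 (−0.90), PHLDA3 (−0.69) and MDM2, at 369 and 377 CPM in ST and 214 and 265 CPM in AL_DCF. CDKN1A (−0.20) and BAX (−0.08) were not called. Over the 24 targets the median log2 fold change against ST was −0.30 in AL and −0.25 in ST_DCF. Of 9 caspase genes, the proteases of cell death, edgeR's quasi-likelihood test and DESeq2 called 0, with 1 caspase, CASP10 (−0.34), at an unadjusted p under 0.05 and 1 higher without AL_DCF replicate 1. CASP8 was at −0.01.

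Metabolic genes were read in lists of lipid, sugar and amino acid use. ANGPTL4, a target of PPAR receptors and of hypoxia, went from 3.25 and 3.26 CPM in ST to 47.8 and 31.3 CPM in AL_DCF (log2 fold change 3.60 ± 0.30, adjusted p = 1.3e-05), with AL at 73.3 and 64.3 CPM and ST_DCF at 10.5 and 4.97 CPM. CPT1A, the gate of mitochondrial fatty acid oxidation, went from 36.1 and 42.8 to 87.0 and 78.5 CPM (1.07 ± 0.10, adjusted p = 3.2e-05). In the list of PPAR targets and fatty acid oxidation 7 of 29 were higher and 4 lower (median 0.16; 2 higher and 1 lower without ST replicate 1, 4 and 1 without ST replicate 2, and 2 and 1 lower without AL_DCF replicate 1 and AL_DCF replicate 2). TXNIP, an inhibitor of thioredoxin and glucose uptake, was the most changed of the lower ones, from 427 and 386 to 131 and 215 CPM. PPARA (0.27) and PPARG (−0.07) were not called and PPARD (−0.34) fell. Of 35 glycolysis and hypoxia genes 9 were higher and none lower (median 0.14; 5 higher without ST replicate 1 or ST replicate 2, and 2 lower without either ST_DCF library). ALDOC (1.15), BNIP3 (0.60), PFKM (0.55) and ENO1 (0.48) led, whereas VEGFA (−0.14), CA9 (−1.07) and LDHA (0.14) did not pass the test. Of 36 branched-chain amino acid and ketone genes 6 were higher and 5 lower (median 0.10). The counts were 2 and 2 without ST replicate 1, 1 and 1 without ST replicate 2, and 2 and 5 without AL_DCF replicate 2. SLC16A14, an orphan member of the monocarboxylate transporter family, rose by 1.10 (adjusted p = 0.0034) and the ketone enzyme ACAT1 by 0.40 (adjusted p = 0.0077) on the log2 scale. Among the 5 lower were IVD (−0.44, adjusted p = 0.0026), BCKDHA (−0.43, adjusted p = 0.0040) and BCAT1 (−0.41, adjusted p = 0.0063).

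In the list of NRF2 and glutathione genes, 16 of 35 members rose and 1 fell (45.7% and 2.86%, median 0.35). NRF2 is the factor that answers oxidative and electrophilic stress. The higher count was smaller without either ST library, and the lower count was larger without either AL library. FTL, the ferritin light chain, went from 915 and 915 to 1782 and 1583 CPM (0.88 ± 0.085, adjusted p = 3.8e-05). TXNRD1, which reduces thioredoxin, went from 419 and 389.7 to 664 and 756 CPM and the quinone reductase NQO1 from 336 and 329 to 579.9 and 554 CPM. These 3 genes separated the groups in every library. GCLM (0.62), HMOX1 (0.49) and SRXN1 (0.37) rose by less. The member that fell was GSS (−0.55, adjusted p = 0.00035), the last enzyme of glutathione synthesis, and NFE2L2, which encodes NRF2, was at 0.03 and not called.

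DCF blocks the cyclooxygenases encoded by PTGS1 and PTGS2, the first step from arachidonic acid to prostaglandins. Neither gene was called in AL_DCF against ST: PTGS1 was at 10.7 and 11.2 CPM in ST and 11.3 and 10.4 CPM in AL_DCF, and PTGS2 at 7.56 and 7.59 and 7.50 and 4.66 CPM. Downstream, PTGES, the inducible prostaglandin E synthase, fell from 46.1 and 49.8 to 27.7 and 22.8 CPM (−0.93 ± 0.11, adjusted p = 0.00014), while ST_DCF had 90.5 and 87.4 CPM and AL 20.1 and 22.8 CPM. PTGIS, the prostacyclin synthase, and ALOX5, which starts leukotriene synthesis, were low in AL_DCF at 0.806 and 0.766 CPM and 0.874 and 1.05 CPM against 4.05 and 4.45 CPM and 4.42 and 4.48 CPM in ST. Of 25 tested genes of the pathway 6 were lower and 2 higher (median −0.13; 1 and 0 higher without ST replicate 1 and ST replicate 2). Of 20 genes listed for the metabolism and transport of DCF, 7 could be tested. The efflux pump gene ABCB1 rose from 17.8 and 14.6 to 24.4 and 26.2 CPM (0.64 ± 0.14, adjusted p = 0.0079) and was not called without ST replicate 2. CYP2J2 (−1.86) and the uptake carrier SLCO1B3 (−2.12) fell, and 1 of them was called without ST replicate 2 or AL_DCF replicate 2.

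Mechanosensory and signalling genes were higher in some members and lower in others. PIEZO2, a stretch-gated cation channel, went from 24.9 and 23.5 CPM in ST to 48.3 and 56.5 CPM in AL_DCF (1.11 ± 0.098, adjusted p = 2e-05), whereas PIEZO1 was not called (−0.22). Of 26 such channels 4 were higher and 6 lower (2 and 3 without either ST library, and 2 higher without AL_DCF replicate 1). SCNN1A, a sodium channel subunit of wet epithelia, and the calcium channel TRPV6 fell, with log2 fold changes of −1.41 and −2.22. The YAP targets CCN1 and CCN2, matricellular proteins that respond to mechanical load, went from 217 and 221 to 547 and 480.1 CPM and from 58.0 and 54.2 to 140.3 and 137 CPM, but AMOTL2 (−0.72) and F3 (−1.20), targets of the same factor, fell, and ANKRD1 (−0.15) was not called. Of 26 YAP targets 5 were higher and 7 lower (2 higher without ST replicate 2, and 3 without ST replicate 1, either AL library or AL_DCF replicate 2). Among 31 TGF-beta and BMP genes GREM1, a BMP antagonist, rose from 13.5 and 11.5 to 67.0 and 44.6 CPM (2.16 ± 0.20, adjusted p = 3.1e-05), BMP4 rose by 1.26 and the activin genes INHBB (−2.05) and INHBA (−1.34) fell. TGFB1 was not called (−0.09), and 6 genes of the list were higher and 7 lower (2 higher without ST replicate 2). Of 40 Wnt genes 12 were higher and 5 lower (5 higher without either ST library and 7 without AL_DCF replicate 1). The antagonists FRZB (1.98 and 1.83 to 11.6 and 11.9 CPM) and DKK1 (53.1 and 53.7 to 144 and 113 CPM) and the ligand WNT5A (11.9 and 11.2 to 33.7 and 27.9 CPM) rose, and the epithelial ligands WNT7A (−2.50), WNT7B (−0.82), WNT10A (−1.87) and WNT9A (−1.44) fell.

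The comparison of AL_DCF with AL holds the stimulus the same and changes the drug. AL_DCF and AL differed in 62 of 17445 genes (0.355%), 18 higher and 44 lower in AL_DCF, and 2190 genes had an unadjusted p under 0.05. DESeq2 called 258 genes, and edgeR without the filter on low counts 24. The count was between 27 and 37 without an ST library, AL replicate 1 or AL_DCF replicate 2, 10 without AL replicate 2, 92 without AL_DCF replicate 1, and 143 and 142 without ST_DCF replicate 1 and ST_DCF replicate 2. The largest group among the 62 was the replication-type histones, the genes that supply histones during DNA synthesis, with 17 of 42 tested members, all lower in AL_DCF than in AL. H1-2 was at 44.8 and 47.3 CPM in ST, 49.6 and 44.0 CPM in ST_DCF, 107 and 113 CPM in AL and 48.8 and 42.3 CPM in AL_DCF. H2BC12 was at 124 and 132 CPM in ST, 269 and 297 CPM in AL and 105 and 130.0 CPM in AL_DCF. Both genes stood out in AL alone, and their AL_DCF libraries overlapped ST (AL_DCF against AL −1.27 ± 0.094, adjusted p = 0.00035, and −1.27 ± 0.10, adjusted p = 0.00036). Over all 42 members the median log2 fold change against ST was 0.97 in AL and −0.09 in AL_DCF, and the summed level was 310 and 329 CPM in ST, 658 and 745.5 CPM in AL and 299 and 303 CPM in AL_DCF. Against ST, 2 of the 42, H2AC8 and H2AC18, were lower in AL_DCF and none was higher (0 lower without ST replicate 2 or AL_DCF replicate 2, and 1 without ST replicate 1 or either AL library). H2AC19, a near copy of H2AC18 outside the list, was lower as well (−0.49, adjusted p = 0.034). Many histone genes are near copies of each other, so single genes are less certain than the group. The libraries were made with a stranded mRNA kit, and how fully it captured histone transcripts was not tested.

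Other genes also set AL_DCF apart from AL. DHRS2, a short-chain reductase, was at 235 and 253 CPM in ST and 266 and 251 CPM in ST_DCF, lower in AL at 126 and 128 CPM and lower again in AL_DCF at 54.6 and 63.1 CPM (AL_DCF against AL −1.11 ± 0.089, adjusted p = 0.00036). DNAH3, a dynein heavy chain of cilia, was raised in AL (49.0 and 45.7 CPM) and was at 18.4 and 15.5 CPM in AL_DCF, under its ST level of 28.6 and 26.9 CPM. HDAC9, a histone deacetylase, was at 9.91 and 10.9 CPM in ST, 1.25 and 1.40 CPM in AL and 3.96 and 3.13 CPM in AL_DCF, so that AL_DCF lay between the other groups. CD68, a lysosomal membrane protein, was lower in AL (41.4 and 38.8 CPM) than in AL_DCF (67.2 and 60.4 CPM), which was not called against ST (54.5 and 56.1 CPM). LAMA1 was higher in AL_DCF than in AL (40.1 and 40.0 CPM in AL; 0.44 ± 0.079, adjusted p = 0.042). RNA45SN3, annotated as a ribosomal RNA precursor, was at 252 and 281 CPM in ST, 357 and 342 CPM in AL and 777 and 1630.1 CPM in AL_DCF, the last 2 values far apart. It is one of several near-identical copies, so its reads are uncertain. Of the 62 genes, 25 also differed between AL_DCF and ST, and 35 differed between AL and ST but not between AL_DCF and ST. These comparisons reuse the AL or AL_DCF libraries by which the 62 genes were picked. A shift in a reused library enters both calls, so the 25 and 35 only describe the 62 genes and are no independent test. In the interaction of stimulus and drug, which asks whether AL_DCF differs from the sum of both changes on the log scale, 6 genes (0.0344%) were called, all negative, and 1963 had an unadjusted p under 0.05. Leaving out ST replicate 2 or AL replicate 2 left 0, and the count was 2 without ST replicate 1, 3 without ST_DCF replicate 1, 51 without AL_DCF replicate 1 and 189 without ST_DCF replicate 2.

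**Figure D5:**
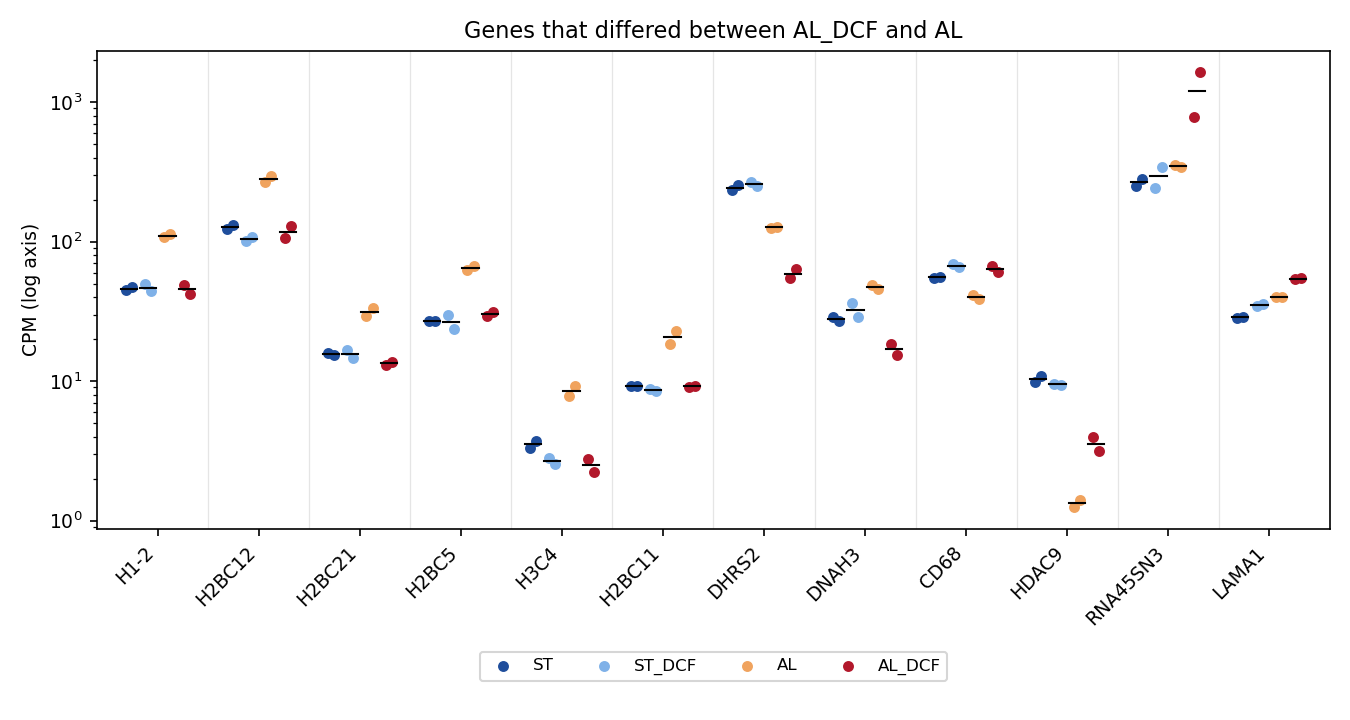
Points are single libraries, with CPM on a log axis, and black bars are the means of the 2 libraries of each condition. The 6 histone genes on the left stand high in AL alone, DHRS2 and DNAH3 are lowest in AL_DCF, and the 2 AL_DCF libraries of RNA45SN3 lie at 777 and 1630.1 CPM.

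Cell cycle, survival, stress and Notch genes follow. Of 43 genes of DNA replication 5 were higher and 2 lower, and of 40 mitotic genes 6 were higher and 2 lower. The higher counts were 1 and 1 without ST replicate 1 and 1 and 0 without ST replicate 2. Among replication genes 12 were higher without either ST_DCF library and 2 without an AL or AL_DCF library, among mitotic genes 3 without an AL library or AL_DCF replicate 2, and the lower counts lay between 0 and 3. CHAF1A, which deposits histones at the replication fork, rose by 0.53, MKI67 (−0.08) and PCNA (0.06) were not called, and PLK1 (−0.35) fell. Among BCL2 family genes 5 of 19 were lower, such as BCL2A1 (−2.04), HRK (−1.91), BIK (−1.05) and BCL2L1 (−0.54), and none higher. The lower count was smaller without either ST library. Of 29 genes of the unfolded protein and integrated stress response 1 was higher and 3 lower, with TRIB3 at −0.63, HSPA5 at −0.20 and ATF4 at −0.19, the last 2 not called, while without 1 library the higher count was 0 to 3 and the lower count 2 to 6. Notch genes fell in 5 of 24 members, NOTCH1 (−0.91) and HES2 (−1.70) among them, and 2 to 3 were lower without an ST library, an AL library or AL_DCF replicate 2. The high fold change of CZ1P-ASNS, a transcript that overlaps ASNS, rested on 1.09 and 1.43 CPM in ST and 17.6 and 13.8 CPM in AL_DCF, with 8.36 and 1.06 CPM in ST_DCF, and ASNS itself was not called (−0.44).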

How the data were processed

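RNA-seq of HCE-T cells in 4 conditions with 2 libraries each was used. According to the submitters' processing notes and the methods, the authors cleaned reads (Trimmomatic 0.38), mapped them to GRCh38 (HISAT2 2.1.0, with Bowtie2 also named) and quantified genes (StringTie 2.1.3b), from a stranded mRNA kit. The deposited counts are raw read counts per gene. TPM values, scaled by the authors for transcript length and library size, were read but support no printed result. FPKM, log2-normalized values, means and the authors' own fold changes, levels and p-values per comparison were not used. How the authors removed low quality transcripts is not stated in these sources. The table held 18430 genes, all with a count of 1 or more in each library.

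The edgeR package (4.0.16, R 4.3.3) kept 17445 genes with filterByExpr by condition and dropped 985. TMM factors were computed and 1 model of 4 conditions was fitted to all 8 libraries (4 residual degrees of freedom; biological coefficient of variation 9.48%). Every adjusted p is a Benjamini-Hochberg value over all genes tested, from the quasi-likelihood test without a replicate block, and genes were called under 0.05. The alternatives were the authors' kind of exact test, DESeq2 (1.42.0), other scaling factors (RLE, upper quartile), omission of the filter, a replicate block, a fold of 2, thinning, only the libraries compared, and each library left out. The test was tried on simulated counts. Gene positions and promoter windows came from RefSeq (GRCh38.p14), with 17247 genes matched, and 1 window for each of 27305 symbols was searched.

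The comparison and the 50 gene lists were chosen with earlier results of these data known. Genes were named by a rule: the 12 highest and 12 lowest fold changes among called genes with an average log2 CPM above 1 and groups that did not overlap, up to 4 members per list by smallest adjusted p, genes the study names from its RNA-seq data, and up to 8 genes each for the difference from AL and the interaction. Further members were named, after their values were seen, to describe a list as a whole. The 241 named genes followed across the settings are those of the rule and leave these further members out. Data other than RNA-seq were not used here. Some genes are not reported here.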

Additional observations from a re-analysis of the deposited data

Results flagged for a closer look

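The effect of DCF differed between the AL stimulus and static culture, by the interaction term of edgeR's quasi-likelihood test, in 6 genes. The interaction was −1.30 for H1-2, −1.22 for H2BC21, −1.19 for DHRS2 and −1.71 for DNAH3 on the log2 scale. It was −1.94 for LOC105372338 and −1.79 for LOC107986257, both without a known role. The adjusted p lay between 0.0045 and 0.032. Leaving out ST replicate 2 or AL replicate 2 left 0 such genes and leaving out ST replicate 1 left 2, against 51 without AL_DCF replicate 1 and 189 without ST_DCF replicate 2.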

How the results depend on the processing

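None of the 241 named genes changed the sign of a called difference under the settings run, but the balance of higher and lower members turned in lists with near-equal counts, such as metalloproteinases (5 and 4, but 1 and 2 without ST replicate 2). Between AL_DCF and ST the main counts of 1481 higher and 1714 lower became 1630 and 1724 with DESeq2, 1322 and 1628 with the replicate block, and 1404 and 1702 after thinning to 32880479 counts. Requiring a 2-fold change as well left 208 and 628, and edgeR's exact test, read at an unadjusted p under 0.05 and a 2-fold change, gave 313 and 828. The share of called genes that were higher was 46.4% in the main result, 24.9% past 2-fold, 27.4% with the exact test, 35.6% without ST replicate 1 and 35.3% without ST replicate 2. Leaving out a library gave 467 to 1850 higher and 855 to 2013 lower, 10 to 143 between AL_DCF and AL and 0 to 189 in the interaction. DESeq2 called 258 genes between AL_DCF and AL and 144 in the interaction, and without the filter on low counts edgeR called 24 and 3. With the replicate block 55 and 8 were called. The replicate numbers were not shown to pair the libraries, since the deviations of ST and AL_DCF libraries had a correlation of −0.102. Crossed pairs, chosen after seeing the data, gave 1613 higher, 1818 lower, 64 between AL_DCF and AL, and 3 in the interaction. Of the 241 named genes, 34 and 47 lost their call without ST replicate 1 and ST replicate 2, and 13 and 21 without AL_DCF replicate 1 and AL_DCF replicate 2. These 241 include genes that were not called in the main result. With 2 libraries per group, an exact permutation test cannot give a p under 0.333.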

Other observations

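Single libraries decided 2 calls at the edge of the fold range. SENP3-EIF4A1, a readthrough of neighbouring genes, was at 0.689 and 0.671 CPM in ST and 19.8 and 0.657 CPM in AL_DCF (adjusted p = 0.028, edgeR). PGBD3 was at 2.36 and 0.0305 CPM in ST and 0.0224 and 0.0219 CPM in AL_DCF (adjusted p = 0.019), so that a single ST library carried the fold change. Both were chosen after their values were seen.

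Axon guidance genes, which the report does not describe, had 7 of 55 tested members higher in AL_DCF than in ST and 10 lower (2 higher without either ST library). SEMA7A fell from 139 and 135 to 62.8 and 62.4 CPM (log2 fold change −1.13 ± 0.073, adjusted p = 1.7e-06) and the ephrin gene EFNA1 from 57.6 and 62.8 to 26.2 and 27.5 CPM, whereas SEMA5A rose from 2.41 and 1.89 to 5.94 and 4.36 CPM. Of 19 clock genes 5 were lower and 1, CRY1, higher, and leaving out ST replicate 2 left 0 lower and leaving out ST replicate 1 left 1, with 2 without AL_DCF replicate 2, 3 without either AL library or AL_DCF replicate 1, and 5 without either ST_DCF library. PER1 and ARNTL were not called (0.30 and 0.11).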
